A study of Mus musculus with 8 samples.

Results

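A group of 10 genes that build triglyceride or form the surface of the lipid droplet was followed in perigonadal white adipose tissue (pgWAT). The mice were labelled as lacking OGT in adipocytes or as their controls. The genes are Gpam, Agpat2, Lpin1, Mogat1, Dgat1, Dgat2, Bscl2, Plin2, Plin4 and Cidec, and all probes that carry their current or older names were taken, whatever their values. The array annotation held 12 probes for these 10 genes, of 25697 probes and 16593 genes in all. Total RNA of 8 male mice was hybridised to 1 Illumina MouseRef-8 v2.0 array per mouse. By label and methods, the 3 arrays labelled FKO came from males with a floxed Ogt allele on their single X chromosome and the Adiponectin-Cre transgene. The labels name their strain B6, which the methods call C57BL/6J. By the same sources, the 5 arrays labelled Con came from littermate males with the same floxed allele and no Cre. All 8 mice ate a high-fat diet for 3 days, and the labels give each an age of 15 weeks. The methods state a younger start of the diet, and their text states the sizes of the groups the other way round, whereas the legend of the array results gives them as the labels do. The labels were used. The adiponectin promoter drives Cre in adipocytes, so by this design vessel, immune, mesothelial and stromal cells of an FKO fat pad keep their Ogt. The tissue was read in bulk, where fewer cells of a type and less RNA per cell cannot be told apart.

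Triglyceride is the storage form of fatty acids, and white adipocytes hold most of the body's supply in a single large droplet per cell. GPAM places the first acyl chain on glycerol 3-phosphate, AGPAT2 adds the next, and lipin 1 removes the phosphate to leave diacylglycerol. MOGAT1 makes diacylglycerol by another route, from monoacylglycerol, and DGAT1 and DGAT2 add the last chain. Seipin, the product of Bscl2, helps the droplet to bud from the endoplasmic reticulum. Perilipin 2, perilipin 4 and CIDEC coat the droplet, and CIDEC lets small droplets pass their lipid to large ones. Loss of AGPAT2 or seipin causes severe congenital lipodystrophy in people.

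Ogt did not separate the labelled groups. Its brightest probe read 296, 177 and 260 on the arrays labelled FKO and 188, 264, 199, 232 and 267 on the arrays labelled Con, each in the order of the replicate numbers. Its log2 fold change, FKO over Con on background-corrected values, came to 0.08 with a standard error of 0.23, and for all 3 of its probes the arrays FKO 2, Con 1 and Con 3 were the lowest 3. FKO and Con are therefore names of labels in what follows, and no direction between them is borne out by the deleted gene. Where these probes lie relative to the deleted exons was not settled here, and a probe outside them would check nothing. The adipocyte markers identified the tissue: all 13 on the array were tested, and their summed intensity ran from 50480 to 58760 on FKO arrays and from 57190 to 64070 on Con arrays. Adipoq, the adiponectin gene, read between 7496 and 10066 on FKO arrays and between 9337 and 10666 on Con arrays. Fabp4, the fatty acid carrier of adipocytes, read 612, 539 and 453 on FKO arrays and 564 to 606 on Con arrays. Transcripts of the epididymis, which touches this fat pad, were present unevenly. The summed intensity of 13 such genes was 16880, 1340 and 23340 on FKO 1, FKO 2 and FKO 3, and 1405 to 4392 on the Con arrays, with Con 2 the highest. Adam7, an epididymal surface protein, read 3939, 117 and 7925 on the FKO arrays, against 132 to 531 on the Con arrays. Of these 13 genes, 4 stayed below the background limit of 106.1 on every array.

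None of the 10 genes passed the test between the labelled groups. Of the 12 probes, 10 lay above the background limit on all 8 arrays, 1 for each gene, and entered the fit over 13877 probes. These were ILMN_2655954 (Gpam), ILMN_1215901 (Agpat2), ILMN_3111744 (Lpin1), ILMN_2635387 (Mogat1), ILMN_2807284 (Dgat1), ILMN_1219915 (Dgat2), ILMN_1221719 (Bscl2), ILMN_1222246 (Plin2), ILMN_2588249 (Plin4) and ILMN_1222679 (Cidec). With limma 0 of these 10 were called at an adjusted p under 0.05, and 0.0% of all tested probes were. At an unadjusted p under 0.05 it was 0 of 10, against 4.27% of all tested probes. The methods' t-test, which asks for p under 0.01 and a fold above 1.5, took 0 of the 10 and 0.00721% of all tested probes on the same background-corrected log2 values as limma, and on the deposited linear values it took 0 probes. The FKO and Con values overlapped for every one of the 10, and 0 of 10 were free of overlap, against 2.63% of all tested probes (1.18% with FKO higher and 1.45% with FKO lower). Without FKO 2 limma called 1.39% of all tested probes, without Con 5 it called 0.108%, and 0 of the 10 were among them in both cases. Among the 10, 4 fold changes were above 0 and 6 below it, with a median log2 value of −0.07. The median over all tested probes was −0.02. Standard errors ran from 0.07 for Bscl2 to 0.41 for Mogat1, and exact permutation tests of 8 arrays cannot give a p below 0.0179.

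**Figure D1:**
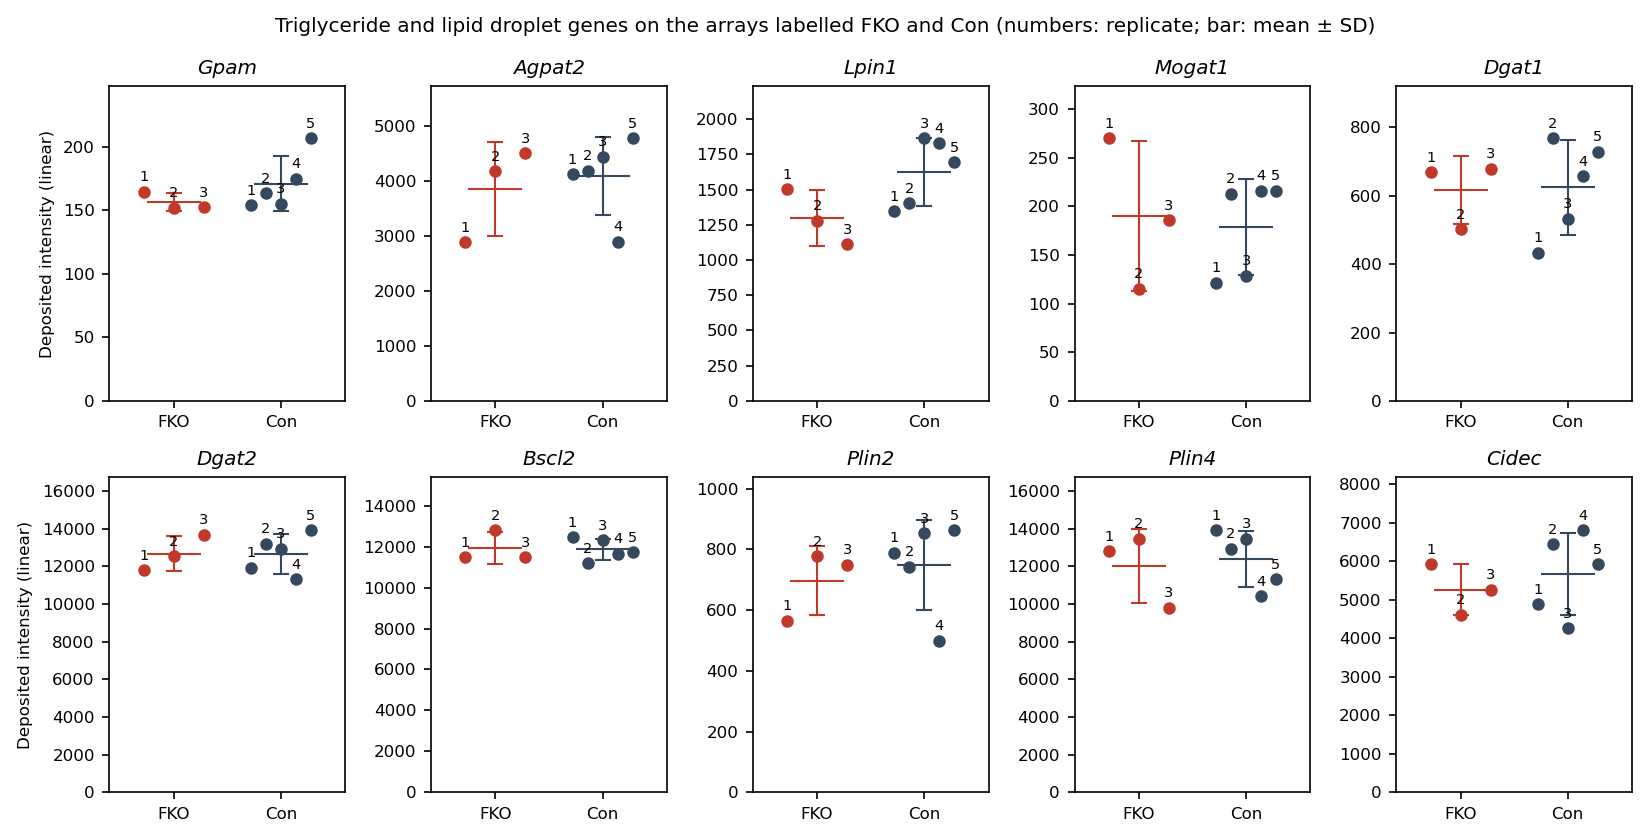
Deposited intensity (linear axis from 0) of the brightest probe of each of the 10 genes on the arrays labelled FKO (left, n = 3) and Con (right, n = 5). Numbers are replicate numbers, and the bars give the mean with the standard deviation. The groups overlap in every panel, and Mogat1, Dgat1 and Cidec are low on FKO 2, Con 1 and Con 3.

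Gpam, whose enzyme commits acyl-CoA to glycerolipid synthesis at the mitochondrial surface, was dim. It read 165, 152 and 153 on the FKO arrays, against 154, 164, 155, 175 and 207 on the Con arrays. FKO 2 and FKO 3 were the lowest of all, and Con 5 the highest. The means of the deposited values were 156 ± 7.08 on FKO arrays and 171 ± 21.7 on Con arrays (SD, n = 3 and 5). On background-corrected values the log2 difference was −0.16 (SE 0.13, exact permutation p = 0.286). All 8 deposited values lay under 2 times the background limit. The log2 difference was −0.12 with no background correction and −0.21 with an offset of 16 in place of 50.

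Agpat2 had low and high arrays under both labels. It read 2890, 4182 and 4506 on the FKO arrays, against 4132, 4196, 4450, 2897 and 4779 on the Con arrays. FKO 1 and Con 4 were alike and far below the other 6. Between the labels the log2 difference was −0.09 (95% interval −0.54 to 0.36, exact permutation p = 0.732), and without FKO 1 it was 0.11.

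Lpin1 had the largest log2 difference between the labels in size among the 10, and it was not called. Lipin 1 is both the phosphatidate phosphatase of fat and a coactivator of transcription. Its bright probe read 1502, 1278 and 1111 on the FKO arrays, against 1344, 1403, 1862, 1829 and 1692 on the Con arrays. FKO 2 and FKO 3 were the lowest of the 8 arrays and Con 3, Con 4 and Con 5 the highest, while FKO 1 lay above Con 1 and Con 2. On background-corrected values the log2 fold change was −0.33 with a standard error of 0.15 (95% interval −0.67 to 0.00). The unadjusted p was 0.0523 and the adjusted p 0.9999 with limma, and the exact permutation p was 0.107. The log2 difference was negative in every alternative run, from −0.45 without FKO 1 to −0.22 with array weights. The 2 other Lpin1 probes, annotated to another transcript of the gene, read between 96.3 and 105.5 on the 8 arrays and were not above background on any, and they were not tested.

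Mogat1 varied most of the 10. It read 270, 115.5 and 186 on the FKO arrays, against 121, 213, 129, 216 and 216 on the Con arrays. FKO 2, Con 1 and Con 3 were close to background and the other 5 arrays stood well above them, with FKO 1 the highest at 2.335 times FKO 2. That ratio is of deposited values. After background correction the range over the arrays was 1.61 on the log2 scale, wider than for 97.5% of tested probes. Between the labels the log2 difference was 0.06 with a standard error of 0.41 (95% interval −0.89 to 1.00, exact permutation p = 0.839), and on a linear scale the interval spans 0.54 to 2.00 times the Con level. Its sign changed with single arrays: the log2 difference was 0.48 without FKO 2 and −0.32 without FKO 1. FKO 1 also had a high sum of epididymal transcripts (16880), and FKO 3, with a higher sum (23340), read below Con 2, Con 4 and Con 5 for Mogat1. The part of epididymal tissue in the Mogat1 values was not tested.

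Dgat1 and Dgat2 encode unrelated enzymes of the same last step, DGAT1 with a broad substrate range in the endoplasmic reticulum and DGAT2 with a known preference for newly made fatty acids. Dgat1 read 668, 501 and 679 on the FKO arrays, against 433, 767, 533, 658 and 729 on the Con arrays. Its 3 lowest arrays were again Con 1, FKO 2 and Con 3. The means of the deposited values were 616 ± 99.5 on FKO arrays and 624 ± 139 on Con arrays (SD, n = 3 and 5). On background-corrected values the log2 difference was 0.00 with a standard error of 0.22 (95% interval −0.49 to 0.49). This interval spans 0.711 to 1.41 times the Con level. Dgat2 read 11812, 12542 and 13686 on the FKO arrays, against 11926, 13203, 12932, 11316 and 13932 on the Con arrays. Con 4 and FKO 1 were lowest. The log2 difference was 0.00 (SE 0.09, 95% interval −0.20 to 0.20), and on average 24 probes of the array were brighter than that of Dgat2.

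Bscl2 was the most even of the 10. It read 11490, 12808 and 11490 on the FKO arrays, against 12444, 11195, 12322, 11653 and 11735 on the Con arrays. Its highest value was 1.14 times its lowest. FKO 2, Con 1 and Con 3, low for Mogat1 and Dgat1, were its 3 highest. The log2 difference was 0.01 (SE 0.07, 95% interval −0.15 to 0.16), and 31 probes were brighter. Quantile-normalized arrays share 1 set of values, and the same value stands on FKO 1 and FKO 3. The highest value on the arrays was 18023. Whether the top of the scale narrowed the spread of Bscl2 or Dgat2 was not tested.

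The droplet coat genes had high and low arrays under both labels. Plin2, the perilipin of small droplets in most cell types, read 566, 778 and 749 on the FKO arrays, against 789, 744, 853, 500 and 864 on the Con arrays. Con 4 and FKO 1 were the lowest 2, as for Agpat2. Between the labels its log2 difference was −0.10 (SE 0.21, exact permutation p = 0.696). Plin4, a perilipin with a long run of repeats that coats new droplets in adipocytes, read 12808, 13471 and 9808 on the FKO arrays, against 13932, 12932, 13471, 10419 and 11316 on the Con arrays. FKO 3 and Con 4 were lowest, and Con 1, Con 3 and FKO 2 were the 3 highest, with 30 probes brighter on average. Between the labels its log2 difference was −0.05 (SE 0.14, exact permutation p = 0.714). Cidec read 5920, 4608 and 5259 on the FKO arrays, against 4885, 6441, 4266, 6809 and 5920 on the Con arrays. Con 3, FKO 2 and Con 1 were lowest, and the highest array, Con 4, was 1.6 times Con 3. Between the labels its log2 difference was −0.09 (SE 0.17, 95% interval −0.47 to 0.29, exact permutation p = 0.661), and it was 0.00 without FKO 2.

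**Figure D2:**
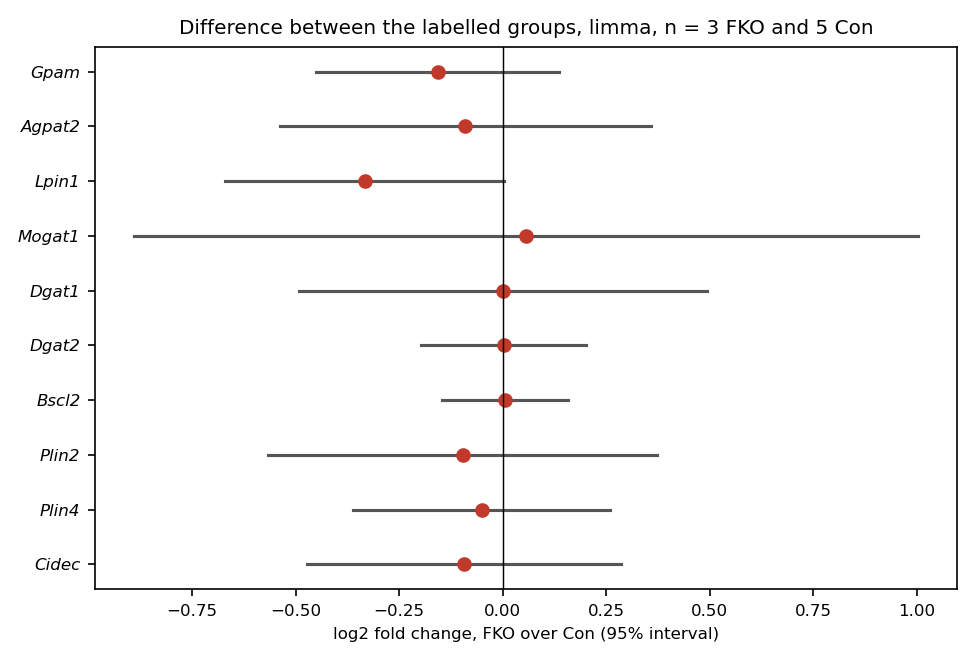
Log2 fold change (FKO over Con, x axis) of each of the 10 genes, with its 95% interval from limma. Every interval includes 0, that of Lpin1 reaches it only at its upper end, and that of Mogat1 is the widest, from −0.89 to 1.00.

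The 10 genes fell into sets that shared an order of the arrays. For Mogat1, Dgat1 and Cidec the arrays Con 1, Con 3 and FKO 2 were the lowest 3, and for Plin4 and Bscl2 the same arrays were the highest 3. That makes 5 of 10 genes, where 25.4% of all tested probes have these arrays at 1 end or the other (11.2% lowest and 14.3% highest). Ogt belongs to the first kind. For Agpat2, Plin2 and Dgat2 the lowest 2 arrays were Con 4 and FKO 1, an order found in 8.52% of tested probes. These orders were noticed in the values and are given as a description, with no test. The other 2 genes, Lpin1 and Gpam, followed neither order. Median deviations of the 10 genes from their own means ran from −0.105 on Con 1 to 0.236 on Con 5 on the log2 scale, and those of all tested probes from −0.027 on FKO 3 to 0.012 on FKO 2 and Con 5.

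**Figure D3:**
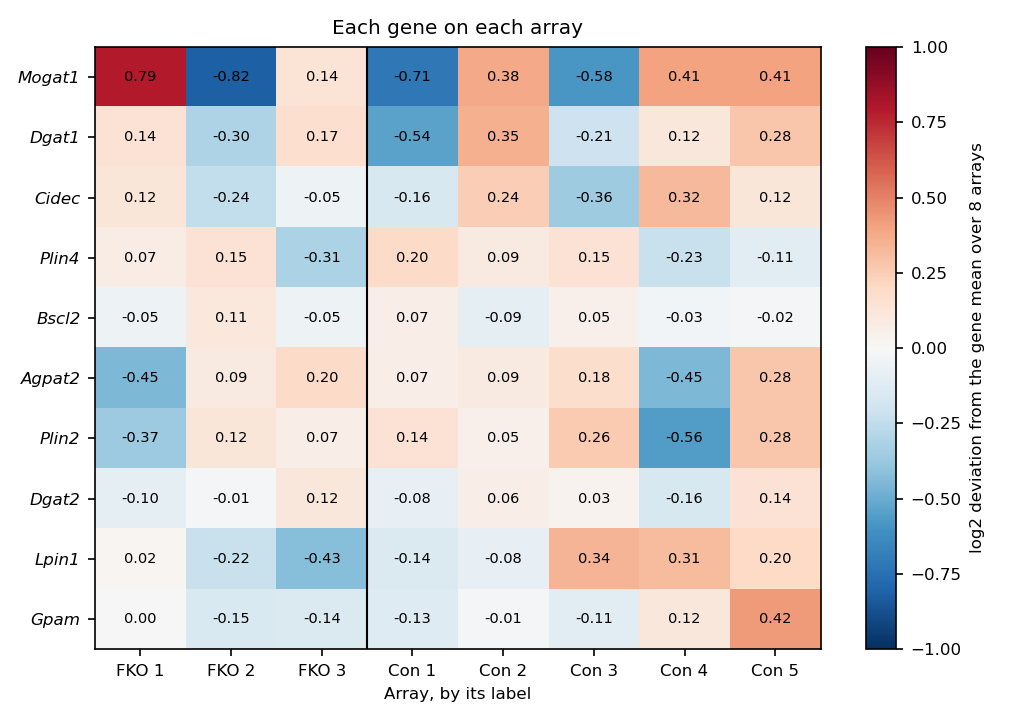
Deviation of each gene (rows, grouped by shared order of arrays) from its mean over the 8 arrays, on the log2 scale, on the arrays labelled FKO (left of the line) and Con. Blue cells recur on FKO 2, Con 1 and Con 3 for Mogat1, Dgat1 and Cidec, and on FKO 1 and Con 4 for Agpat2, Plin2 and Dgat2.

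Some markers of other cell types shared or reversed these orders of arrays, and others in the same lists did not. Among 9 endothelial markers, 6 (Cdh5, Egfl7, Esam, Pecam1, Tek and Tie1) had FKO 2, Con 1 and Con 3 as their 3 highest arrays, the reverse of Mogat1, against 14.3% of all tested probes. The same held for 3 of 9 progenitor and fibroblast markers (Cd34, Col1a1 and Pdgfrb). Dcn of that list and Kdr of the endothelial list instead had Con 4 and FKO 1 as their highest 2. Among 4 tested brown fat markers, Cidea, Cpt1b and Elovl3 also had FKO 2, Con 1 and Con 3 highest. Elovl3 was above the limit only on these 3 arrays (111.1 on each), so the filter fixed its order. Ucp1, Dio2 and Prdm16 were not above the limit on 3 arrays, and Ucp1 was highest on Con 2 (138.3) and lowest on Con 3 (95.2). The summed intensity of the 9 endothelial markers was 4607, 6092 and 3402 on the FKO arrays and 5457, 4030, 5367, 3719 and 4400 on the Con arrays. Among 7 mesothelial markers, 3 (Upk1b, Upk3b and Wt1) were highest on Con 4 and FKO 1, the arrays where Agpat2 and Plin2 were lowest, against 5.85% of all tested probes. The summed intensity of the 7 was 2223, 1470 and 1439 on the FKO arrays and 1648, 1589, 2080, 2628 and 1745 on the Con arrays. None of the 7 mesothelial markers and none of the 9 endothelial ones was below background on all arrays. Of the 13 adipocyte markers, 3 (Adipor2, Lipe and Plin1) were lowest on Con 1, Con 3 and FKO 2, and 0 had Con 4 and FKO 1 as their lowest 2. Adipor2 and Lipe had Con 4 and FKO 1 as their highest 2. All 7 mesothelial markers (median −0.20) and 11 of the 13 adipocyte markers (median −0.08) had fitted log2 differences between the labels below 0. So had 7852 of all 13877 tested probes. Of the 9 tested epididymal markers 8 were above 0, against 6025 of all tested probes, and 0 were called in any of these lists. Rnase9, Spint4 and Defb15 passed the filter on 3 arrays each, among them FKO 1 and FKO 3, so their sign was not independent of the filter. The 6 macrophage, 9 progenitor and fibroblast, 3 erythroid and 4 brown fat markers tested also gave 0 calls. The erythroid sum was 12850 to 13780 on the FKO arrays and 8481 to 12970 on the Con arrays. Alas2 of that list was free of overlap, at 234 to 284 on FKO arrays and 166 to 211 on Con arrays. Its log2 difference was 0.55 (SE 0.13, exact permutation p = 0.0179, adjusted p = 0.9999 with limma). Msln (mesothelial) and Cd163 (macrophage) were free of overlap with FKO lower, against 2.63% of all tested probes free of overlap in either direction. The part of other cell types and of blood in the values of the 10 genes was not tested.

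The promoters of 4 of these genes are shown because 2 of them share the first order of arrays and 2 the other. The promoters are those of RefSeq (GRCm38.p6), and the table used here matched 8 of the 10 genes, all but Dgat1 and Dgat2. Each stretch holds the 250 bases before a transcript start, 5′ to 3′ on the strand of the gene. Capitals mark matches, on either strand, to AGGTCA (the single site of nuclear receptors such as PPARγ), CCAAT (the box bound by NF-Y), GGGCGG (the GC box bound by Sp1) or TTGCNNAA (a C/EBP motif).
Mogat1, chr1:78510810-78511059, plus strand: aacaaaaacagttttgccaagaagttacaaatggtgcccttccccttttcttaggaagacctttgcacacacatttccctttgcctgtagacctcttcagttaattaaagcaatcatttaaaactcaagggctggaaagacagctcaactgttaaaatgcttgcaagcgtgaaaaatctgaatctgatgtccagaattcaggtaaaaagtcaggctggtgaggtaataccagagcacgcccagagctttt
Cidec, chr6:113435761-113436010, minus strand: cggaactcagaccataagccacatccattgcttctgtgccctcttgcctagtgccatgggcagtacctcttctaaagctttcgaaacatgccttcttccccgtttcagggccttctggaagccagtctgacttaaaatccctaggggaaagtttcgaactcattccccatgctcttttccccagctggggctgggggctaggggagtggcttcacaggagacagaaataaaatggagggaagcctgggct
Agpat2, chr2:26604418-26604667, minus strand: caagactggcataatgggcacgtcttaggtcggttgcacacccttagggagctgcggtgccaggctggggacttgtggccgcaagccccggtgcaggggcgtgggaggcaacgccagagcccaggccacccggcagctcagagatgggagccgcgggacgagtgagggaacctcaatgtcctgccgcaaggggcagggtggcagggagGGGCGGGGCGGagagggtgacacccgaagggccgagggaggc
Plin2, chr4:86670060-86670309, minus strand: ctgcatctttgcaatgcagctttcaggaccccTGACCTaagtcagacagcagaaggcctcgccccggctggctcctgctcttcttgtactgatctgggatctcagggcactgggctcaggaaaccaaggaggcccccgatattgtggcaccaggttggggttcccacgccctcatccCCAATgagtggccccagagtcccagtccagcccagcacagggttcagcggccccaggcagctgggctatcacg

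The Mogat1 and Cidec stretches hold none of these motifs. Agpat2 has 2 overlapping GC boxes, which begin 42 and 37 bases before the start, and GGGCGG occurs in 32.7% of 32851 promoter stretches of this length. Plin2 has a reversed AGGTCA beginning 218 bases before its start, a motif found in 4607 of the 32851 stretches, and a CCAAT box at 73 bases, found in 33.8%. A second start of Cidec, not printed, has a TTGCNNAA at 198 bases (9.56% of stretches). The paired PPAR element (a pair of AGGTCA, or of AGGNCA, set 1 base apart; 0.0335% and 0.338% of stretches), the sterol element TCACNCCAC (1.05%), the E-box CACGTG (6.02%) and the TATA box TATAAA (12.4%) were searched as well and matched no stretch of the 8 genes. The GC content was 41.2% for Mogat1, 52.8% for Cidec, 69.2% for Agpat2 and 61.6% for Plin2, against a median of 52.4% over all stretches. A match describes letters in this window and shows no binding, and an absent match says nothing of the factor.

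Genes whose profile over the 8 arrays came closest were sought among 9638 other tested genes for the 3 probes of widest range. Likeness was the root mean square difference of the centred log2 profiles. Closest to Mogat1 were H2-Ke6 (0.14), Fahd2a (0.14) and Qdpr (0.15). H2-Ke6 read 1568, 429 and 914 on the FKO arrays and 472, 1124, 534, 1247 and 1093 on the Con arrays, the same order of low and high arrays as Mogat1. Closest to Dgat1 were Etfb (0.07), a subunit of the electron transfer flavoprotein of fatty acid oxidation, Nudt2 (0.08) and Cux1 (0.08). Closest to Plin2 were Cdc34 (0.03), a ubiquitin-conjugating enzyme, Kmt5a (0.09) and Atp10a (0.11). Cdc34 read 240, 323 and 301 on the FKO arrays and 315, 304, 347, 207 and 335 on the Con arrays, again lowest on Con 4 and FKO 1. All these genes were picked for likeness of profile, so shared low and high arrays follow from the search.

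Other genes that supply glycerol phosphate or add acyl chains gave no call either. Of 23 listed, 18 were on the array and 16 were tested, of which 7 had fitted values above 0 and 9 below it (median log2 value −0.07), and 0 were called higher and 0 lower. Aqp7, the glycerol channel of adipocytes, read 831, 859 and 738 on the FKO arrays, against 810, 955, 907, 984 and 1149 on the Con arrays (log2 difference −0.25, SE 0.12, exact permutation p = 0.107). Acsl4, an acyl-CoA synthetase that prefers arachidonate, read 158, 138 and 207.5 on the FKO arrays and 132 to 153 on the Con arrays (log2 difference 0.33, SE 0.16, exact permutation p = 0.0714), with FKO 3 and FKO 1 highest. Agpat5 and Lpin3 read 122 to 134 and 108.5 to 115.5 on the FKO arrays, against 133 to 136 and 115 to 123 on the Con arrays, close to background. Their log2 differences were −0.12 (SE 0.061) for Agpat5 and −0.10 (SE 0.062) for Lpin3, each with an exact permutation p of 0.0357, and neither was called by limma (adjusted p = 0.9999). Mogat2, the intestinal partner of Mogat1, ran the other way across the arrays: it read 147.5, 440 and 260 on the FKO arrays and 400, 257, 364, 205 and 325 on the Con arrays. FKO 2, Con 1 and Con 3, the lowest arrays for Mogat1, were the highest for Mogat2. Mogat2 was singled out after its values were seen, and its log2 difference between the labels was −0.30 (SE 0.415).

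Of 38 listed proteins of the lipid droplet, 35 were on the array and 28 were tested, 13 with fitted values above 0 and 15 below it (median log2 value −0.03) and 0 called in either direction. Cideb, a relative of Cidec known from liver, read 115, 110 and 110 on the FKO arrays, against 130, 145, 135, 149 and 108 on the Con arrays, within reach of background (log2 difference −0.36, SE 0.15, unadjusted p = 0.0373, adjusted p = 0.9999 with limma). Tmem159, which encodes the seipin partner LDAF1, read 493, 326 and 444 on the FKO arrays, against 291, 314, 330, 417 and 308 on the Con arrays (0.37, SE 0.18, exact permutation p = 0.125). Plin3, a perilipin that moves to new droplets from the cytosol, was at 280 to 291 on the FKO arrays and 284 to 334 on the Con arrays (−0.16, SE 0.075, exact permutation p = 0.0536). Faf2, a ubiquitin-binding protein found on droplets, had a log2 difference of −0.16 (SE 0.075). Plin1, the main perilipin of adipocytes, was singled out after its values were seen and had the order of Mogat1: it read 543, 365 and 500 on the FKO arrays and 384, 523, 440, 461 and 577 on the Con arrays (−0.03, SE 0.18).

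Of 12 genes that take triglyceride apart at the droplet, 10 were on the array and 9 were tested, 3 above 0 and 6 below it (median log2 value −0.01), with 0 called. Pnpla2, the first lipase, read 9670, 10222 and 5181 on the FKO arrays, against 9062, 8036, 10222, 11195 and 7466 on the Con arrays, so that FKO 3 alone stood low (log2 difference −0.19, SE 0.24). Daglb, which cleaves diacylglycerol, had −0.22 (SE 0.12), Mgll, which cleaves monoacylglycerol, −0.10 (SE 0.14), and Lipa, the lysosomal lipase, 0.03 (SE 0.09).

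**Figure D4:**
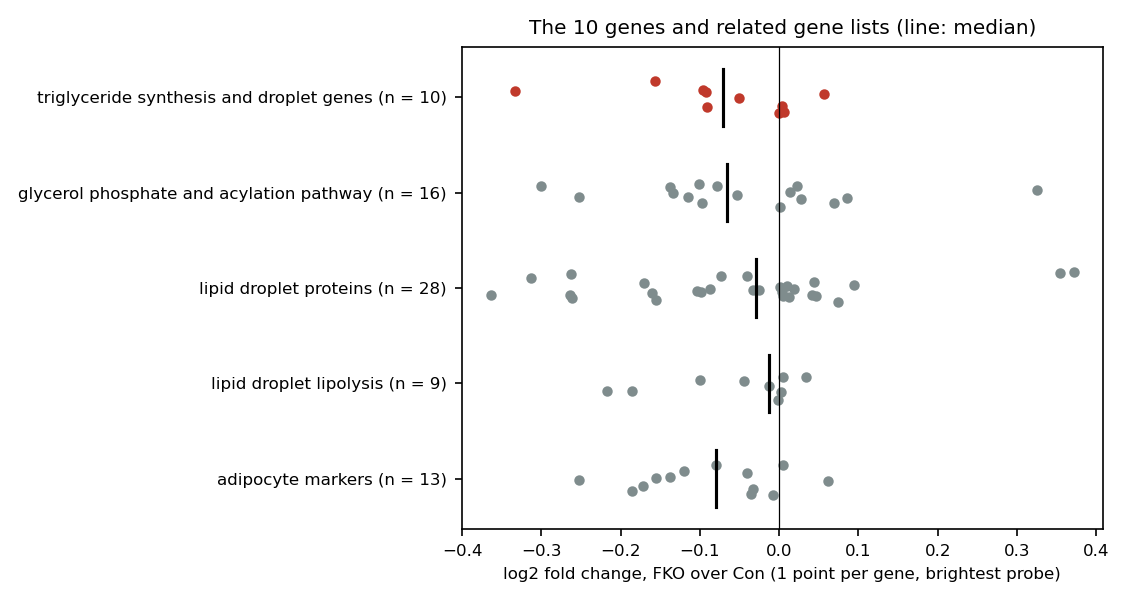
Log2 fold change (FKO over Con, x axis) of the tested genes of 5 lists, 1 point per gene by its brightest probe, with the median as a line. Aqp7, Lipe, Plin1 and Pnpla2 stand in 2 lists each. The medians lie between −0.08 and −0.01, and no point passed the test.

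Sets of arrays were also left out together. Without Con 1, Con 3 and FKO 2, which leaves 2 FKO and 3 Con arrays, the log2 difference was −0.35 for Lpin1, −0.25 for Gpam, −0.20 for Cidec, −0.10 for Agpat2 and Dgat1, −0.08 for Plin2, −0.04 for Plin4, 0.07 for Mogat1, −0.01 for Dgat2 and 0.00 for Bscl2. Without the arrays rich in epididymal transcripts, Con 2, FKO 1 and FKO 3, only FKO 2 stands for FKO, and its spread is assumed to equal that of the Con arrays. The value was then −0.70 for Mogat1, −0.40 for Lpin1, −0.23 for Cidec and Gpam, −0.22 for Dgat1, 0.01 for Dgat2, 0.07 for Agpat2, 0.09 for Plin2 and Bscl2 and 0.14 for Plin4. None of the 10 was called in either case. Values for Lpin1, Gpam, Cidec and Dgat1 were below 0 in both, and no shared direction is read from this. Con 1, Con 3 and FKO 2 were the lowest 3 arrays for Cidec, Dgat1 and Mogat1. Leaving them out was therefore not independent of these genes' values. The other run rests on FKO 2, which was also among the lowest 2 arrays for Lpin1 and Gpam. With no array left out Dgat1 stood at 0.00. How many of all tested probes were below 0 in both runs was not counted.

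**Figure D5:**
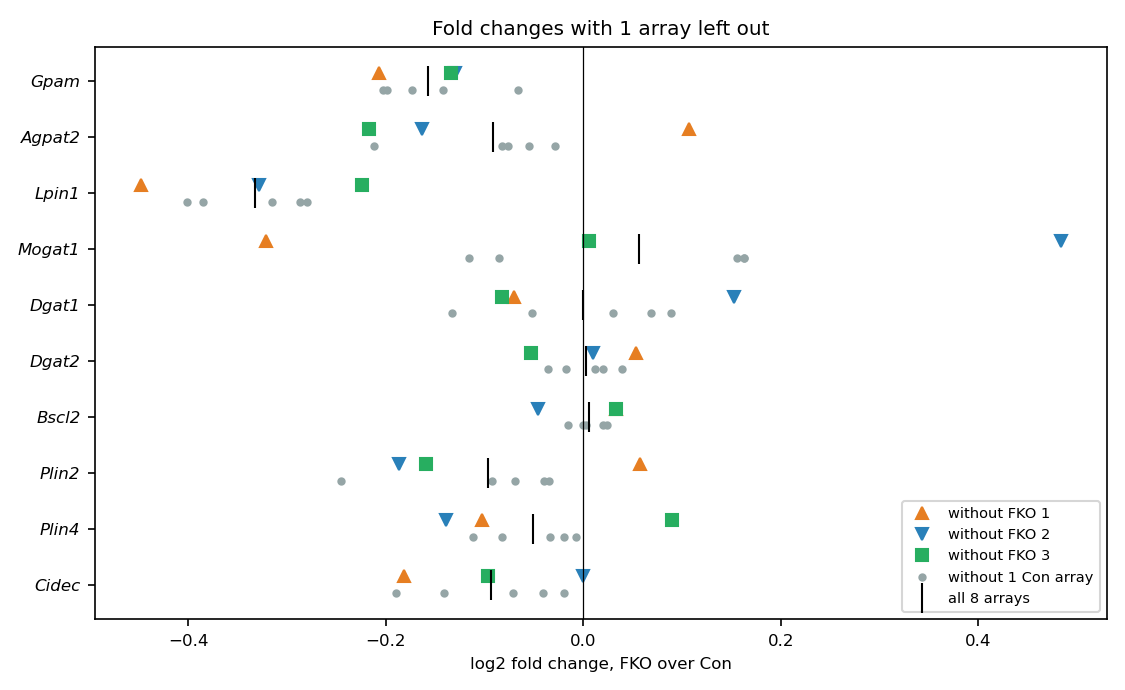
Log2 fold change (FKO over Con, x axis) of each of the 10 genes on all 8 arrays (black bar) and with 1 array left out. Mogat1 spans from −0.32 without FKO 1 to 0.48 without FKO 2, and Lpin1 and Gpam stay below 0 throughout.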

How the data were processed

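The authors hybridised biotinylated cRNA of pgWAT to Illumina MouseRef-8 v2.0 arrays and deposited quantile-normalized intensities on a linear scale. How the scanner output became these values, apart from quantile normalization, is not given in the sources used here. A table of non-normalized signals was not used, since none of its 16 columns names a sample. The 10 genes, the lists and the alternatives were chosen with earlier results of these data known.

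Probes were matched to genes by Entrez ID and symbol (23978 of 25697 carry 1 symbol, 1719 none). The background mode was 98.5 and its limit 106.1 (mode plus the distance from the mode to the 1st percentile of the values below it). A probe entered the test (13877 did) when 3 or more arrays put it over this limit. Of these, 51.6% lie under 2 times the limit on all arrays. Depth has no meaning for arrays, and their number limits the precision.

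The deposited intensities went through normexp background correction with an offset of 50 and a further quantile normalization, and their log2 values were fitted by group with limma 3.58.1 in R 4.3.3 (two-sided), with Benjamini-Hochberg adjustment over all tested probes and a threshold of 0.05. Exact permutation tests (two-sided) compared mean log2 values across each of the 56 splits into 3 and 5 arrays. The code was tested on simulated data. No label ties arrays to litters, so p-values reflect only the spread among these 8 arrays. Genes were named by a rule: the 10 genes, Ogt, Adipoq, Fabp4, Adam7, the 4 genes per related list with the smallest p, and the 3 genes nearest in profile to each of the 3 widest-ranging probes, with a gene of several probes given by its brightest. Mogat2, Plin1 and the markers named by their order of arrays, their overlap or the filter were chosen after their values were seen. Alternatives covered the background correction, centring, the filter, array weights, eBayes settings, a block by replicate number, the methods' t-test and arrays left out.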

Additional observations from a re-analysis of the deposited data

Results flagged for a closer look

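For Plin2, 1 of the 5 Con arrays lay apart. On the log2 scale the gap below the next array was 0.729 of the range of the Con arrays, above the limit of 0.71 for 5 samples, and the array was Con 4, at 500 against 744 to 864 on the other Con arrays. FKO 1, at 566, was next to it. Chance gives about 1 such case in 20 groups, and 10 were tried.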

How the results depend on the processing

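None of the 10 genes was called under any alternative run, and their 10 fold changes kept their sign in 177 of 210 values. Part of this count was fixed in advance. Runs that changed only the filter, the eBayes settings or the test on the same log2 values return the same fold changes. For Dgat1 (0.00), Dgat2 (0.003) and Bscl2 (0.006) the main value was so near 0 that its sign says little. Over all tested probes limma called 0 (593 at an unadjusted p under 0.05), the methods' t-test 1, and limma without Con 1, Con 3 and FKO 2 called 1. With 1 array left out the count ran from 0 to 193 (193 without FKO 2 and 15 without Con 5), with 0 of the 10 genes among them. With 1 array left out, log2 fold changes ran from −0.22 to 0.11 for Agpat2, −0.046 to 0.033 for Bscl2, −0.19 to 0.00 for Cidec, −0.13 to 0.15 for Dgat1, −0.053 to 0.053 for Dgat2, −0.21 to −0.07 for Gpam, −0.45 to −0.22 for Lpin1, −0.32 to 0.48 for Mogat1, −0.245 to 0.057 for Plin2 and −0.14 to 0.09 for Plin4.

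Other changes of sign were these, and the cause was not tested. Array weights gave −0.033 for Dgat2, 0.054 for Cidec and −0.034 for Bscl2, and values with the sign kept beyond the ranges above for Agpat2 (−0.285), Plin2 (−0.278), Mogat1 (0.548) and Dgat1 (0.158). For Dgat1, whose value was 0.00, it was −0.001 with no background correction, −0.000 with median centring and −0.019 with the methods' t-test on linear values. Leaving out Con 2, FKO 1 and FKO 3 gave −0.216 for Dgat1, 0.067 for Agpat2, 0.090 for Plin2, 0.144 for Plin4 and −0.699 for Mogat1. Leaving out Con 1, Con 3 and FKO 2 gave −0.095 for Dgat1, −0.006 for Dgat2 and −0.004 for Bscl2.

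The deviations of FKO 1 and Con 1, FKO 2 and Con 2, and FKO 3 and Con 3 from their group means correlated at −0.56, −0.70 and −0.41. Whether mice of the same replicate number shared a litter or batch was not tested. No FKO array correlated best with the Con array of its own number. With the replicate number as a block, limma called 0 probes (210 at an unadjusted p under 0.05), and the sign turned for Dgat2 (−0.002), Cidec (0.032) and Bscl2 (−0.007), while Plin4 (−0.174) and Gpam (−0.016) kept their sign beyond the ranges above.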
